A study of Mus musculus with 12 samples.

Results

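Chemokines and chemokine receptors were taken from the deposited gene table by name. A gene belonged to the set if it was protein-coding and its symbol was made of Ccl, Cxcl, Xcl, Cx3cl, Ccr, Cxcr, Xcr, Cx3cr or Ackr, a number and at most a single further letter. This gave 59 of the 52636 genes in the table, of which 37 were ligands and 22 were receptors, and 4 of the receptors were of the atypical kind. *Cxcl11* was outside the set because the annotation lists it as a polymorphic pseudogene. A filter on low counts left 54 of the 59 for testing. The other 5 had few or no counts: *Ccl21b* and *Ccl26* had 0 counts in all 12 libraries, *Cxcl17* had 0 to 4 counts per library, *Ccl21a* had 0 to 11 and *Ccl19* had 0 to 29. *Ccl21b*, *Ccl21a* and *Ccl19* have 100%, 71.6% and 52% of their 50-base stretches in common with other genes, so reads that fit several genes may be missing from their counts.

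Chemokines are small secreted proteins that direct the movement of leukocytes, and their names follow the spacing of the cysteines near the amino terminus (CC, CXC, XC and CX3C). They act on receptors that span the membrane and signal through G proteins, whereas the atypical receptors bind chemokines without that signal and take them up or carry them. In skin they come from many cells: keratinocytes make *Ccl27a* and *Cxcl14*, fibroblasts and endothelium make *Cxcl12*, dendritic cells make *Ccl17* and *Ccl22*, and macrophages make *Ccl6*, *Ccl8* and *Ccl9*. *Cdc42*, the gene deleted in this study, codes for a small GTPase that organises actin and cell polarity, also in cells that migrate toward a chemokine.

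Skin of 4 groups of 3 mice each was sequenced on day 14 to ask how zinc oxide nanoparticles (ZnO NPs) act on skin whose barrier is weakened by the loss of *Cdc42*. By the labels all mice were C57BL/6 (C57BL/6J in the study's methods) and aged 3 months, and all were shaved on the back. The *Cdc42* KO mice carried floxed *Cdc42* on both alleles and Cre under the K5 promoter, which is active in basal keratinocytes, so that other skin cells kept the gene, and the WT mice were Cre-negative and carried floxed *Cdc42* on at least 1 allele. The WT and KO groups received saline with hydroxypropyl methylcellulose on the skin, and ZnO NPs in that vehicle went to the KO+ZnO NPs and WT+ZnO NPs groups.

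Total counts were 21076320 to 28867802 per library. *Cdc42* was at 606 to 628 CPM (counts scaled to a fixed library total) in WT, 415 to 464 in KO and 314 to 453 in KO+ZnO NPs, but in the WT+ZnO NPs libraries it was at 311 to 350, which goes against their label, and every direction drawn from those libraries below is that of the libraries so labelled. *Cdc42* did not pass in KO against WT (log2 change -0.49, edgeR adjusted p = 0.0653) and was called lower in WT+ZnO NPs against WT (-0.92, edgeR adjusted p = 7.99e-04). Other skin cells kept the gene, so a wrong label and a change in the make-up of cells cannot be told apart from this level. Y-linked transcripts were at 192 to 242 CPM in every WT+ZnO NPs library, in KO replicate 1 and in KO+ZnO NPs replicate 1, and at 0 to 0.0504 in the other 7, although the study describes female mice. Between WT and WT+ZnO NPs, treatment and the presence of Y-linked transcripts therefore cannot be told apart within those 6 libraries. Keratinocyte markers were high in every library, with 7640 to 28100 CPM summed over 9 genes. The 9 macrophage markers summed to 4250 to 5490 CPM in WT, 250 to 531 in WT+ZnO NPs, 2250 to 3990 in KO and 451 to 1030 in KO+ZnO NPs. In whole skin, fewer cells of a type and less RNA per cell cannot be told apart.

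The upstream sequences of 3 ligands are shown because *Ccl6* and *Ccl9* are neighbours that changed together below, while *Cxcl14* changed in the opposite direction. *Ccl6* (ENSMUSG00000018927) lies on the minus strand of chromosome 11 at 83587882 to 83593087 and *Ccl9* next to it at 83572919 to 83578636, and *Cxcl14* lies on the minus strand of chromosome 13 at 56288643 to 56296551 (GRCm38). Each sequence below holds the 250 bases before the start of the gene in RefSeq on GRCm38.p6, written 5′ to 3′ on the minus strand, at chr11:83593088-83593337 for *Ccl6*, chr11:83578637-83578886 for *Ccl9* and chr13:56296552-56296801 for *Cxcl14*. Capitals mark GGAAGTG, the core bound by ETS factors such as PU.1, or its reverse complement. That motif was picked after the sequences had been read.
Ccl6: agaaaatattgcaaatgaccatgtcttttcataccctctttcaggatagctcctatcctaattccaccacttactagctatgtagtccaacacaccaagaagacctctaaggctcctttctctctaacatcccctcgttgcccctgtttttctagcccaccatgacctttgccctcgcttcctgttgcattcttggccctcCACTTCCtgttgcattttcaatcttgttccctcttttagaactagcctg
Ccl9: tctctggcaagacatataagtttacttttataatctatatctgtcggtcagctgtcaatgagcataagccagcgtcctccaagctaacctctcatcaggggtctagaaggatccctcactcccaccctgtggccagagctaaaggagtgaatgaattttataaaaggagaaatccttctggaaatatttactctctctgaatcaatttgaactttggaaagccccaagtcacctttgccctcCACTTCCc
Cxcl14: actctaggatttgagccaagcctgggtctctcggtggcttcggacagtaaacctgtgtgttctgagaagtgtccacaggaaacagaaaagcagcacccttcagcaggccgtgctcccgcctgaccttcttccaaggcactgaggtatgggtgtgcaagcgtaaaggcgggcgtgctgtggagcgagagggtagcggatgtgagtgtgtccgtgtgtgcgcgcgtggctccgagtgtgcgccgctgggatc
The *Ccl6* and *Ccl9* sequences had a stretch of 13 bases in common, GCCCTCCACTTCC, which held the motif in both and began 55 and 14 bases before the start. *Cxcl14* had no match. The RefSeq table gave an upstream sequence for 45 of the 59 members. GGAAGTG, on either strand, was in 7 of these 45 (15.6%; *Ccl6*, *Ccl9*, *Ccl12*, *Ccl22*, *Ccr6*, *Cxcr3* and *Xcl1*) and in 8.6% of all 27025 upstream sequences. *Ccl6* and *Ccl9* were among the sequences read before the motif was picked, so these shares are a description and no test. A kappa B motif, searched on both strands, was in 6 of 45 (13.3%; *Ccl1*, *Ccr3*, *Cxcl1*, *Cxcl2*, *Cxcl3* and *Cxcl10*) and in 1.21% of all, and TTGCNNAA, a C/EBP motif, was in 4 of 45 and in 9.53% of all. TATAAA, the last motif searched, was in 12 of 45 (26.7%) and in 12.9% of all. It had 3 sites in *Ccl9* and 0 in *Ccl6* and *Cxcl14*. *Cxcl14* had the most GC-rich sequence of the 3, at 59.6% GC with 16 CpG, against 45.2% and 2 CpG for *Ccl6* and 43.6% and 2 CpG for *Ccl9*.

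To compare genes with each other, levels were divided by exon length (CPM per kb) and expressed as shares of all ligands or all receptors. In WT, *Ccl6* and *Ccl9* together made up 33.7 to 46.5% of the summed ligand level, *Ccl8*, which attracts monocytes and T cells, 18.3 to 33.9%, and *Cxcl14* 0.851 to 1.54%. In KO, *Ccl8* alone made up 58.1 to 67.0% and the *Ccl6* and *Ccl9* pair 6.35 to 8.92%. *Cxcl14* in the WT+ZnO NPs libraries was at 42.4 to 49.5% and the pair at 3.68 to 4.20%. In KO+ZnO NPs, *Ccl8* stood at 27.4 to 43.8% and *Cxcl14* at 10.3 to 27.8%. The summed ligand level was 1280 to 2440 CPM per kb in WT, 342 to 751 in WT+ZnO NPs, 1190 to 2090 in KO and 270 to 648 in KO+ZnO NPs, so the untreated groups overlapped each other and neither overlapped a group given ZnO NPs.

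**Figure D1:**
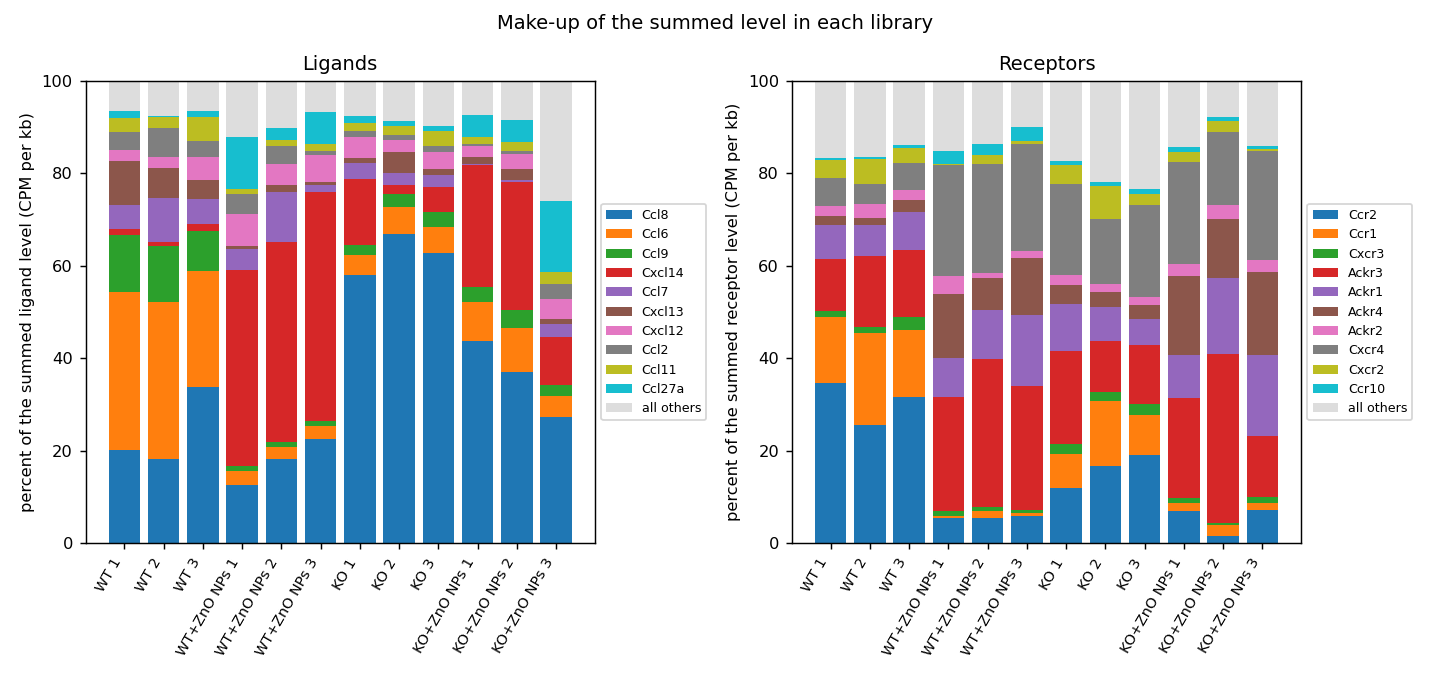
Share of the summed level (CPM per kb, in percent) that 10 named ligands and 10 named receptors took in each of the 12 libraries, with all other members in light grey. *Ccl6* and *Ccl9* lead with *Ccl8* in WT, *Ccl8* leads in KO, and *Cxcl14* leads in WT+ZnO NPs, where the atypical receptors and *Cxcr4* take a larger share, and *Ccr1* and *Ccr2* a smaller one, than in WT.

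Receptor make-up shifted as well. *Ccr1* and *Ccr2*, receptors of monocytes and macrophages for inflammatory CC chemokines, made up 45.5 to 48.9% of the receptor level in WT, 19.3 to 30.7% in KO, 5.79 to 6.88% in WT+ZnO NPs and 3.82 to 8.70% in KO+ZnO NPs. The 4 atypical receptors made up 22.7 to 27.6% in WT and 23 to 36.5% in KO, against 50.6 to 55.8% in WT+ZnO NPs and 50.7 to 68.7% in KO+ZnO NPs. These are shares of a smaller sum, and 3 of the 4 were themselves lower in CPM in WT+ZnO NPs than in WT, as given below. *Cxcr4*, the receptor of *Cxcl12*, was at 4.37 to 6.11% in WT, 23.3 to 24.0% in WT+ZnO NPs, 14.0 to 19.9% in KO and 15.8 to 23.5% in KO+ZnO NPs, while its CPM did not pass between WT and WT+ZnO NPs (edgeR adjusted p = 0.744). The summed receptor level was 148 to 182 CPM per kb in WT, 84.3 to 126 in KO, 27.1 to 46.2 in WT+ZnO NPs and 42.2 to 45.1 in KO+ZnO NPs.

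Without ZnO NPs, the loss of *Cdc42* in keratinocytes went with more *Ccl1*, *Ccl17*, *Cxcl16*, *Cx3cl1*, *Ccr8* and *Cxcr4* and with less *Ccl6* and *Ccl9*. There were 6 members called higher (11.1% of the 54 tested, beside 4.61% of all 18822 genes tested) and 3 called lower (5.56%, beside 3.58% of all genes) where a call is a Benjamini-Hochberg adjusted p of less than 0.05 from the quasi-likelihood test of edgeR. The median log2 change of the members was 0.01, the same as that of all genes. Of the 32 ligands tested, 4 were higher and 2 lower, and of the 22 receptors, 2 were higher and 1 lower.

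*Ccl17*, which attracts T helper cells through *Ccr4*, was at 0.881, 0.456 and 0.255 CPM in the WT libraries and at 2.34, 6.91 and 5.42 in KO. All 3 KO libraries were above all WT libraries, with a log2 change of 3.19 ± 0.57 (SE, edgeR adjusted p = 0.0103). *Ccl1*, a ligand of *Ccr8*, was at 0.462, 0.175 and 0.467 CPM in WT and at 2.08, 4.74 and 3.13 in KO (log2 change 3.17 ± 0.62, edgeR adjusted p = 0.0146). Its receptor *Ccr8*, found on T helper 2, regulatory and skin-resident T cells, was at 0.797, 0.456 and 0.510 CPM in WT and at 2.55, 3.82 and 2.69 in KO (log2 change 2.35 ± 0.53, edgeR adjusted p = 0.0257). For these 3 genes the groups did not overlap, and the counts behind them were low. *Ccl8*, another ligand of *Ccr8* in the mouse, was at 186, 229 and 221 CPM in WT and at 420, 716 and 383 in KO, which did not pass (log2 change 1.26 ± 0.47, edgeR adjusted p = 0.123). *Ccr4*, the receptor of *Ccl17* and *Ccl22*, also did not pass, at 2.56 to 4.57 CPM in WT and 4.17 to 9.84 in KO, nor did *Ccl22*, at 4.59 to 19.4 and 13.1 to 27.8.

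*Cxcl16*, a membrane-bound ligand of *Cxcr6*, was at 31.8 ± 5.19 CPM in WT (SD, n = 3) and 87.1 ± 26.6 in KO (SD, n = 3), a log2 change of 1.46 ± 0.31 (SE). It overlaps *Zmynd15* on the opposite strand and has 16.9% of its 50-base stretches in common with it, and *Zmynd15* was also higher in KO by 1.65 (edgeR adjusted p = 0.03). The use of strand in the counting is not stated, so reads of the pair cannot be told apart where they overlap. *Cx3cl1*, the tethered chemokine fractalkine, was at 12.8, 7.51 and 11.8 CPM in WT and 17.4, 18.3 and 24.1 in KO (log2 change 0.90 ± 0.24, edgeR adjusted p = 0.0447), whereas its receptor *Cx3cr1* was at 3.55 to 8.35 and 7.23 to 10.6 and did not pass. *Cxcr4* was at 13.5 to 20.1 CPM in WT and 30.1 to 36.3 in KO (log2 change 1.01 ± 0.24, edgeR adjusted p = 0.0304), with its ligand *Cxcl12* at 361 to 520 and 354 to 517 CPM.

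*Ccl6* and *Ccl9*, both made by myeloid cells, were lower in KO. *Ccl6* was at 1120, 1490 and 571 CPM in WT and at 109, 212 and 122 in KO, which fell by 2.84 on the log2 scale (SE 0.58, edgeR adjusted p = 0.0174). *Ccl9* was at 678, 902 and 343 CPM in WT and at 88.9, 189 and 117 in KO, which fell by 2.29 (SE 0.52, edgeR adjusted p = 0.0271). In both genes the highest KO library was well below the lowest WT library. *Ccr2*, from 295 to 426 CPM in WT to 67.6 to 141 in KO, and *Ccr1*, from 60.7 to 96.4 to 17.7 to 50.3, did not overlap either, and did not pass (edgeR adjusted p = 0.0685 and 0.101).

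Other cell markers differed between these groups. Of 9 macrophage markers, 1 was lower and 0 were higher in KO. Of 9 T cell markers, 4 were higher, with a summed level of 206 to 320 CPM in WT and 348 to 426 in KO, and of 9 markers of Langerhans and dendritic cells, 2 were higher, at 908 to 1560 and 2060 to 2880 CPM in sum. Hair follicle markers were higher for 7 of 8 genes, at 8.77 to 18.9 CPM in sum in WT and 27.6 to 7440 in KO, as were 3 of 9 keratinocyte markers (8670 to 12900 and 15200 to 28100 CPM) and 2 of 7 mast cell markers (196 to 376 and 518 to 937 CPM). Of the neutrophil markers 1 of 7 tested was higher, with sums of 266 to 352 and 552 to 1560 CPM, and of the melanocyte markers 2 of 7 were (61.9 to 81.3 and 92.2 to 243 CPM). The neutrophil marker called was *Mmp9*, at a mean of 42.1 CPM in WT and 643 in KO, which is much of the KO sum. The other neutrophil markers tested did not pass and went both ways (*Csf3r* log2 change -1.33, *S100a8* 0.71). Of the B and plasma cell markers 1 of 6 tested was higher (62.2 to 185 and 124 to 1440 CPM), and of the skeletal muscle markers 1 of 7 was lower (5340 to 6420 and 1590 to 5360 CPM). Their part in these changes was not tested. Without WT replicate 2, 0 of the members were called in this comparison (edgeR, beside 1.94% of all genes), with 13 members at an unadjusted p below 0.05. Leaving out any other WT or KO library left 3 to 5 calls, beside 3.19 to 4.75% of all genes. The calls of *Ccl6* and *Ccl9* held in 9 and 8 of the 12 fits that left out a library, those of *Ccr8* and *Cxcr4* in 7 and that of *Cx3cl1* in 5. The calls of *Cxcr4* and *Cx3cl1* were also lost with the replicate block (edgeR adjusted p = 0.0534 and 0.0723) and with the covariate named next (0.0549 and 0.0512). That of *Ccl9* was lost with the covariate (edgeR adjusted p = 0.0507). With the presence of Y-linked transcripts as a covariate, 5 members were called, 4 higher and 1 lower, beside 5.11% of all genes.

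**Figure D2:**
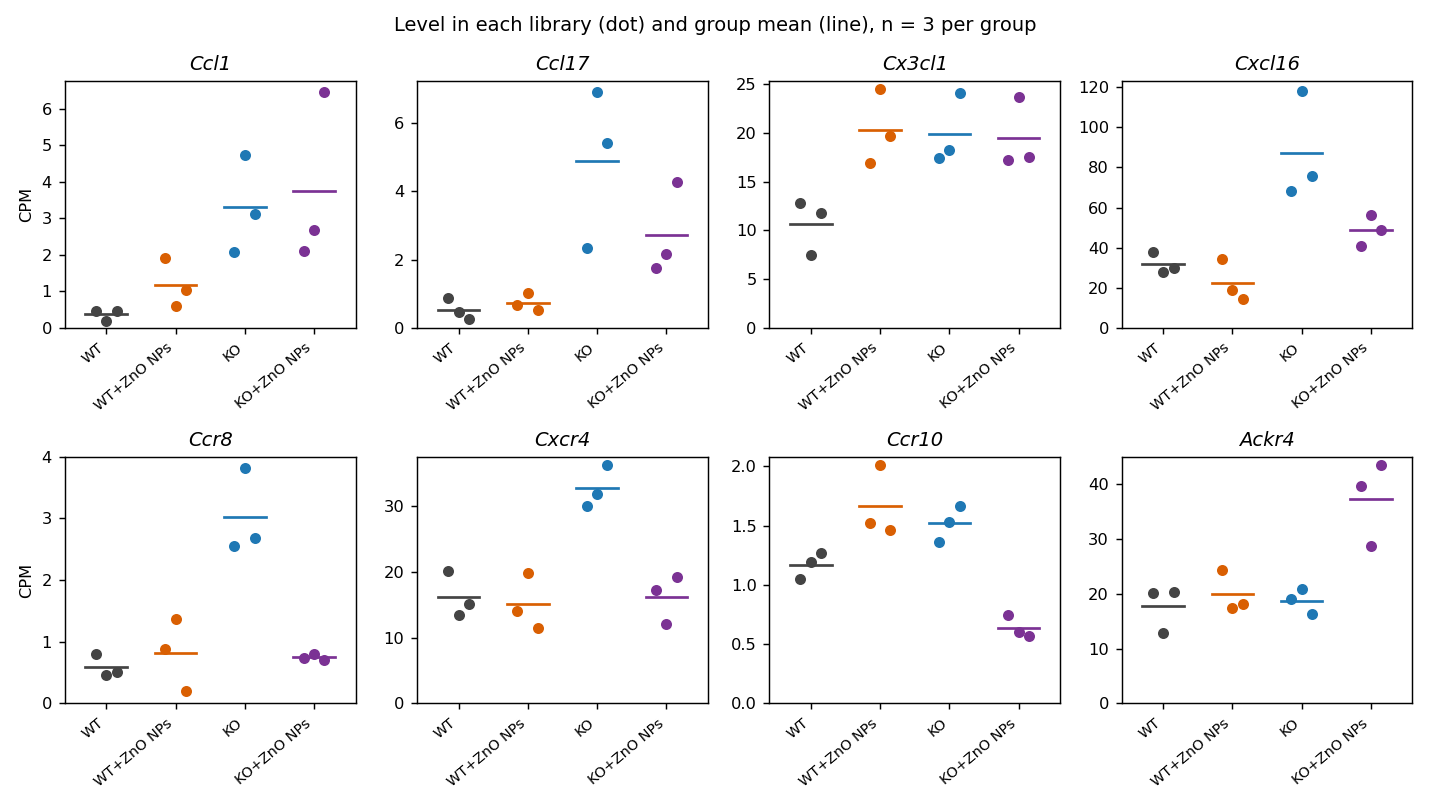
Level in CPM of 8 members in each library (dots; lines are means of n = 3), with each axis from 0. *Ccr8* and *Cxcr4* are high in KO alone, *Ccl1* and *Ccl17* in both KO groups, *Cx3cl1* in every group but WT, and *Ccr10* and *Ackr4* stand apart in KO+ZnO NPs.

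In the libraries labelled WT+ZnO NPs, 16 of the 32 ligands tested and 13 of the 22 receptors were lower than in WT. Some of them were lower by more than 30-fold in mean CPM, while *Cxcl14*, *Cx3cl1* and *Ccl1* were higher. There were 29 members called lower (53.7% of those tested, beside 22.1% of all genes) and 3 called higher (5.56%, beside 20.8% of all genes). The median log2 change was -1.74 for the members and 0.06 for all genes, and it stayed at -1.74 with *Cxcl15* and *Cxcr1*, which had 0 counts in WT+ZnO NPs, set to the bound that 3 counts allow. With the presence of Y-linked transcripts as a covariate, 13 members were called in place of 32, 11 lower and 2 higher, and 20.7% of all genes were called. Among those still called were *Ccl6*, *Ccl8*, *Ccl9*, *Ccl11*, *Ccr1*, *Ccr2*, *Ccr3*, *Cxcr2*, *Cxcr3*, *Ackr2*, *Cx3cl1* and *Ccl1*. The other calls of this comparison named below, that of *Cxcl12* included (edgeR adjusted p = 0.0986), were lost with the covariate.

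Among the ligands for monocytes and macrophages, 3 of 4 monocyte attractants and 4 of 6 other inflammatory ligands were lower. *Ccl6* was at 20.6, 35.3 and 17.1 CPM in WT+ZnO NPs and fell by 5.44 (SE 0.66, edgeR adjusted p = 1.55e-04). *Ccl9* was at 13.0, 24.4 and 12.5 CPM and fell by 5.27 (SE 0.60, edgeR adjusted p = 1.11e-04). Both were far below the WT libraries given above, with no overlap. *Ccl8* was at 23.9, 70.3 and 39.3 CPM and fell by 2.25 (SE 0.49, edgeR adjusted p = 0.00425), while *Ccl2* and *Ccl12*, ligands of *Ccr2*, fell by 2.48 and 2.97. *Ccl3* and *Ccl5*, inflammatory ligands of CC receptors, fell by 2.73 and fell by 2.18. *Ccl7* did not pass, at 55.0 to 186 CPM in WT and 4 to 64.8 in WT+ZnO NPs, nor did *Ccl4* and *Xcl1*.

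*Ccl6* overlaps the long noncoding gene *E230016K23Rik* on the opposite strand. That gene was at 1.15 to 3.40 CPM in WT and 0.0800 to 0.777 in WT+ZnO NPs, far below *Ccl6* in every library, and was itself called lower. *Ccl9* has 1.97% of its 50-base stretches in common with other genes and *Ccr1* has 0.

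The other ligand groups were mixed. *Ccl11* and *Ccl24*, the eotaxins that attract eosinophils through *Ccr3*, fell by 3.23 (SE 0.37) and 2.52 (SE 0.75), although for *Ccl24* the lowest WT library, at 4.03 CPM, was below the highest WT+ZnO NPs library, at 4.29. *Ccl22* and *Ccl20*, made by dendritic cells and by epithelium, fell by 1.89 and 2.88. Of the ligands that attract neutrophils, *Cxcl3* fell by 4.68, *Cxcl5* fell by 7.55 with an SE of 1.74, and *Cxcl15* had 13 counts over the WT libraries and 0 over the WT+ZnO NPs libraries, which makes it at least 4.12-fold lower, a call held in 3 of the 12 fits that left out a library. *Cxcl5* was at 2.01, 29.5 and 3.27 CPM in WT with 4 counts in all in WT+ZnO NPs, and its log2 change ran from -11.12 to -5.42 when a library was left out. *Cxcl1*, at 2.25 to 7.93 CPM and 0.949 to 30.0, and *Cxcl2*, at 9.65 to 17.9 and 0.356 to 12.7, did not pass and varied widely within the labelled group. *Cxcl13*, the ligand of *Cxcr5* that attracts B cells, was at 58.4 to 197 CPM in WT and 2.32 to 13.0 in WT+ZnO NPs and fell by 4.61. *Cxcl12* was at 361, 497 and 520 CPM in WT and 216, 280 and 162 in WT+ZnO NPs and fell by 1.07 (SE 0.28, edgeR adjusted p = 0.0108). The interferon-inducible *Cxcl9* and *Cxcl10* did not pass, although their receptor *Cxcr3* did.

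Of the 22 receptors, 13 were lower and 0 higher. *Ccr1* was at 73.3, 96.4 and 60.7 CPM in WT and at 0.400, 1.83 and 0.633 in WT+ZnO NPs, and fell by 6.35 (SE 0.59, edgeR adjusted p = 4.01e-05). *Ccr2* was at 426, 295 and 316 CPM in WT and at 11.8, 17.1 and 10.6 in WT+ZnO NPs, and fell by 4.71 (SE 0.56, edgeR adjusted p = 1.47e-04). In both genes the groups were far apart, although the WT+ZnO NPs libraries of *Ccr1* themselves differed by several fold. *Ccr3*, the eotaxin receptor, had 305 counts over the WT libraries and 3 over the WT+ZnO NPs libraries, a depth-scaled ratio of 96.7 with an exact 95% counting interval of 32.8 to 472. *Cxcr1* and *Cxcr2*, the receptors of neutrophils, had 38 counts against 0 for the former, at least 12.1-fold lower, and 15.5 to 28.0 CPM against 0.320 to 2.47 for the latter, which fell by 4.34. *Cxcr3*, found on activated T cells, fell by 3.13 (SE 0.43), *Ccr9* fell by 1.53 (20.1% of its 50-base stretches are in common with other genes, it overlaps other genes on both strands, and its edgeR adjusted p with Y-linked transcripts as a covariate was 0.125), *Cxcr5* fell by 1.90 (a call held in 3 of the 12 fits that left out a library) and *Cx3cr1*, found on monocytes and Langerhans cell precursors, fell by 1.40 (a call held in 7 of the 12 such fits and lost with Y-linked transcripts as a covariate, edgeR adjusted p = 0.311). Such intervals and bounds cover counting error only.

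The atypical receptors divided. *Ackr1*, which carries chemokines across venules, fell by 1.66 (SE 0.30), *Ackr2*, a scavenger of inflammatory CC chemokines on lymphatic endothelium, fell by 2.53 (SE 0.40), and *Ackr3*, a scavenger of *Cxcl12*, fell by 1.18 (SE 0.34). The calls of *Ackr1* and *Ackr3* were lost with Y-linked transcripts as a covariate (edgeR adjusted p = 0.0501 and 0.106). That of *Ackr3* held in 9 of the 12 fits that left out a library. *Ackr4*, which removes *Ccl19* and *Ccl21a*, was at 12.8 to 20.4 CPM in WT and 17.5 to 24.4 in WT+ZnO NPs and did not pass. Endothelial markers moved with these genes, as 7 of 8 markers of blood endothelium and 6 of 6 of lymphatic endothelium were called lower. The markers summed to 743 to 828 and 282 to 443 CPM in WT, and to 127 to 339 and 26.1 to 66.3 in WT+ZnO NPs. *Ackr1* has 20.4% of its 50-base stretches in common with *Cadm3*, so its counts are less certain.

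Leukocyte markers also moved with the lower members. All 9 macrophage markers were called lower in WT+ZnO NPs, as were 2 of 7 tested neutrophil markers (266 to 352 CPM in sum in WT, 13.2 to 106 in WT+ZnO NPs), 6 of 9 Langerhans and dendritic cell markers, 4 of 6 tested B and plasma cell markers and 3 of 9 T cell markers. None of the macrophage markers was at 0, and the part of these cells in the result was not tested. Beyond the endothelium and leukocytes, 4 of 7 mast cell markers were lower and 1 higher (196 to 376 CPM in WT, 63.2 to 144 in WT+ZnO NPs), 5 of 6 adipocyte markers were lower (4950 to 7560 and 804 to 1540 CPM), and of 7 fibroblast markers 3 were lower and 1 higher (7870 to 14700 and 7780 to 33600 CPM), which was not tested for its part either.

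**Figure D3:**
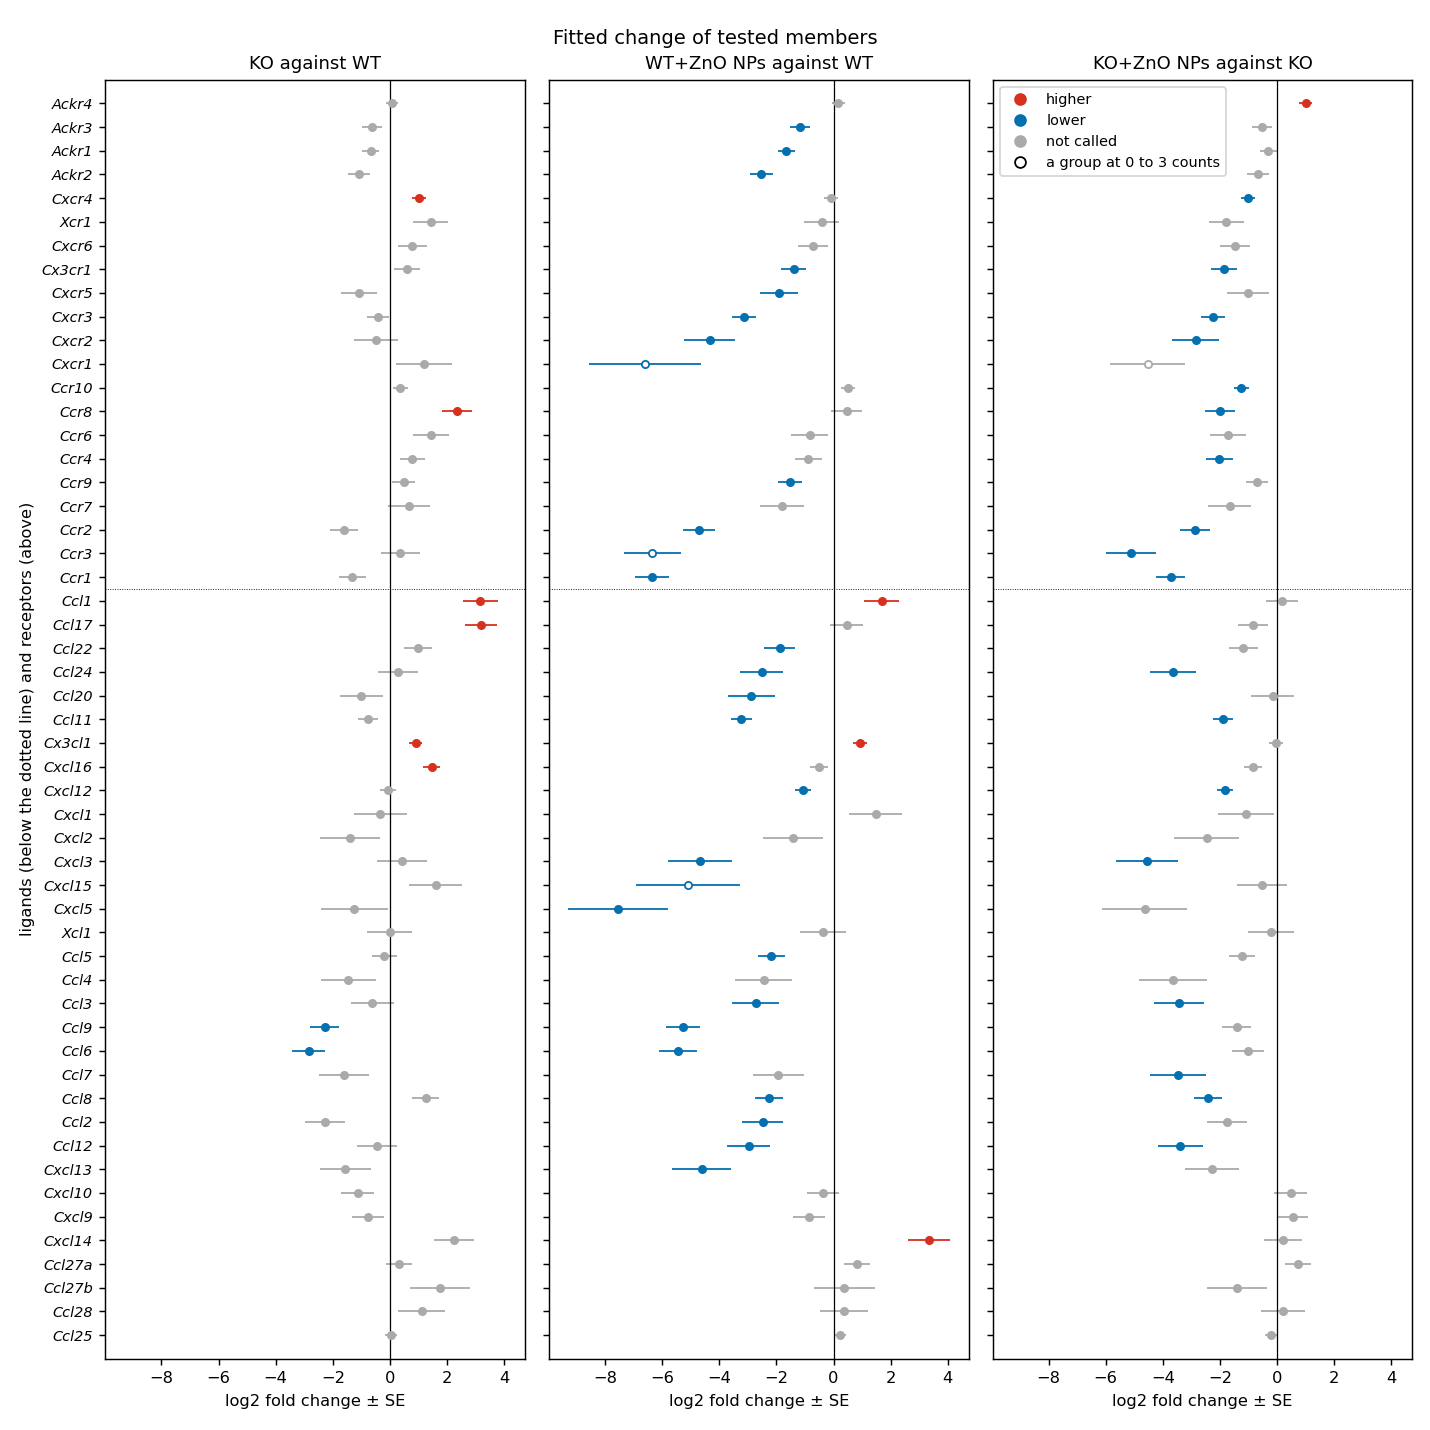
Fitted log2 fold change (x axis; bars are ± 1 SE) of tested members in KO against WT, WT+ZnO NPs against WT and KO+ZnO NPs against KO, with ligands below the dotted line and receptors above. Blue is called lower, red is called higher (6, 3 and 1 members), grey is not called, and an open symbol marks a group with at most 3 counts, for which the fitted value is no bound.

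Against this trend, *Cxcl14* was higher in the libraries labelled WT+ZnO NPs. This chemokine is made by the epidermis and hair follicles in the resting state. It was at 43.6, 37.9 and 35.9 CPM in WT and at 290, 592 and 309 in WT+ZnO NPs (log2 change 3.34 ± 0.73, edgeR adjusted p = 0.00449), and every WT+ZnO NPs library was well above every WT library. In KO it was at 371, 73.3 and 118 CPM and in KO+ZnO NPs at 270, 329 and 50.8, so that a single library in each of these groups differed from the others by several fold. The 8 markers of growing hair follicles summed to 18.9, 8.77 and 15.7 CPM in WT, 828, 3000 and 4410 in WT+ZnO NPs, 7440, 27.6 and 2270 in KO, and 5670, 4640 and 204 in KO+ZnO NPs. *Cxcl14* and these markers were both highest in replicate 1 and lowest in replicate 2 of KO, and both lowest in replicate 3 of KO+ZnO NPs. Their order differed in WT+ZnO NPs, where *Cxcl14* was highest in replicate 2 and the markers in replicate 3, and between replicates 1 and 2 of KO+ZnO NPs. All 8 were called higher in WT+ZnO NPs against WT, as were 6 of 7 melanocyte markers with 1 lower (61.9 to 81.3 and 419 to 1210 CPM in sum) and 2 of 9 keratinocyte markers with 3 lower, and their part in the level of *Cxcl14* was not tested. With Y-linked transcripts as a covariate *Cxcl14* was no longer called (edgeR adjusted p = 0.124).

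*Cx3cl1* was at 16.9, 24.5 and 19.7 CPM in WT+ZnO NPs, above all WT libraries (log2 change 0.93 ± 0.24, edgeR adjusted p = 0.0102). *Ccl1* was at 1.92, 0.594 and 1.03 CPM (log2 change 1.69 ± 0.62, edgeR adjusted p = 0.0467), and its call was lost in 7 of the 12 fits that left out a library. The epidermal T cell attractant *Ccl27a*, at 15.8 to 64.0 CPM in WT and 45.3 to 100 in WT+ZnO NPs, did not pass, and *Ccl27a* and *Ccl27b* have 45.0% and 98.1% of their 50-base stretches in common with other genes.

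**Figure D4:**
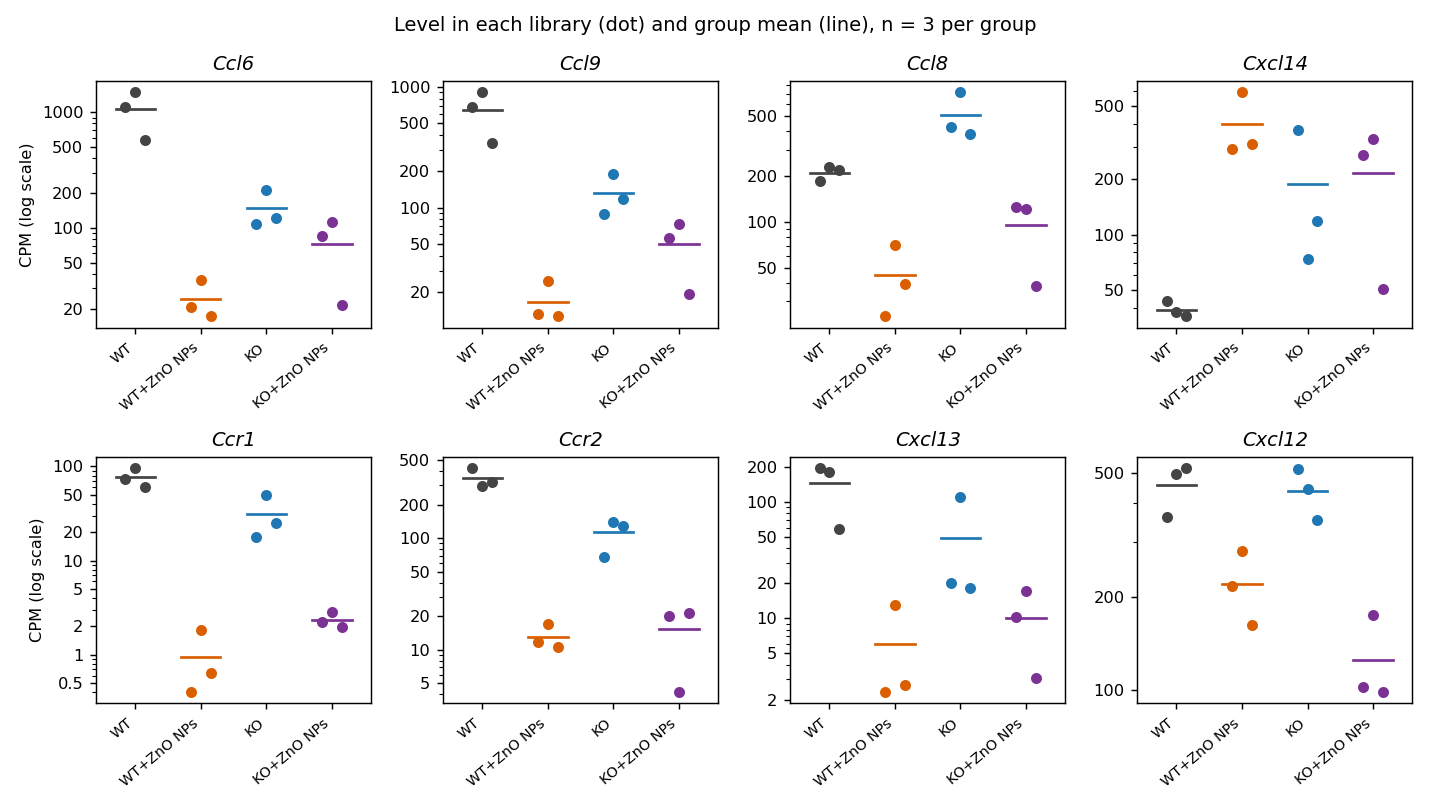
Level in CPM (log axis) of 8 members in each library (dots; lines are means of n = 3). *Ccl6*, *Ccl9*, *Ccr1* and *Ccr2* have group means that are highest in WT, lower in KO and lowest in the groups given ZnO NPs, with *Ccl6* overlapping between KO and KO+ZnO NPs, *Ccl8* is highest in KO, and *Cxcl14* is lowest in WT.

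In KO skin given ZnO NPs, 11 of the 22 receptors, *Ccr1*, *Ccr2*, *Ccr3* and *Cxcr3* among them, and 8 of the 32 ligands tested were lower than in KO skin without ZnO NPs. There were 19 members called lower (35.2% of those tested, beside 8.09% of all genes) and 1 called higher (1.85%, beside 6.57% of all genes). The median log2 change was -1.44 for the members and 0.01 for all genes. With KO and KO+ZnO NPs alone in the fit, 11 members were called, beside 3.24% of all genes. Without KO replicate 2, 7 were called (beside 2.34% of all genes), without KO replicate 3, 12 (5.44%), and without KO+ZnO NPs replicate 2, 11 (7.62%).

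*Ccr1* was at 17.7, 50.3 and 25.0 CPM in KO and at 2.22, 2.82 and 1.96 in KO+ZnO NPs and fell by 3.73 (SE 0.52, edgeR adjusted p = 0.00556). *Ccr2* was at 67.6, 141 and 130 CPM in KO and at 20, 4.18 and 21.6 in KO+ZnO NPs and fell by 2.88 (SE 0.52, edgeR adjusted p = 0.00979). The groups were apart in both genes, and KO+ZnO NPs replicate 2 was several fold below the other 2 libraries for *Ccr2*. *Ccr3* fell by 5.12, *Cxcr3* fell by 2.25 and *Cx3cr1* fell by 1.86. With only KO and KO+ZnO NPs in the fit the calls of *Ccr2*, *Cx3cr1* and *Cxcr2* were lost (edgeR adjusted p = 0.0594, 0.0848 and 0.0832). *Cxcr2* fell by 2.85, a call that held in 2 of the 12 fits that left out a library and was lost with Y-linked transcripts as a covariate (edgeR adjusted p = 0.0563). *Cxcr1* had 85 counts in KO and 3 in KO+ZnO NPs, a ratio of 26.2 with a counting interval of 8.66 to 130, and did not pass (edgeR adjusted p = 0.0515).

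The receptors *Ccr4*, *Ccr8*, *Ccr10* and *Cxcr4*, which were not called lower in WT+ZnO NPs against WT, were called lower in KO+ZnO NPs against KO, and the difference between those changes passed for *Ccr10* and not for the other 3 (edgeR adjusted p of the interaction 0.0649 for *Ccr8*, 0.111 for *Cxcr4*). *Ccr8* was at 0.742, 0.806 and 0.697 CPM and *Cxcr4* at 17.2, 12.1 and 19.2, which fell by 2.01 and 1.02. Both genes overlapped the WT libraries given above. *Ccr4* was at 2.14, 1.06 and 1.39 CPM and fell by 2.03. *Ccr10*, the receptor of *Ccl27a* and *Ccl28* on skin-homing T cells, fell by 1.25. The call of *Ccr8* held in 7 of the 12 fits that left out a library, and with only KO and KO+ZnO NPs in the fit those of *Ccr4*, *Ccr10* and *Cxcr4* were lost (edgeR adjusted p = 0.062, 0.0665 and 0.0545). Markers of T cells moved too, with 6 of 9 called lower. They summed to 348 to 426 CPM in KO and 278 to 373 in KO+ZnO NPs. Also lower were 5 of 6 tested B and plasma cell markers (124 to 1440 and 9.17 to 44.7 CPM), 5 of 9 Langerhans and dendritic cell markers (2060 to 2880 and 974 to 1370 CPM) and 1 of 7 tested neutrophil markers (552 to 1560 and 141 to 441 CPM). Among the other lists, 2 of 6 lymphatic endothelium markers (208 to 271 and 71.4 to 150 CPM), 1 of 7 fibroblast markers (23600 to 37900 and 16000 to 21800 CPM), 1 of 7 mast cell markers and 1 of 7 melanocyte markers were lower, and 2 of 7 skeletal muscle markers were higher. The melanocyte marker called lower was *Mitf* (log2 change -0.55). The melanocyte markers had a median log2 change of 1.79 with 0 called higher, and their sum rose from 92.2 to 243 CPM in KO to 331 to 491 in KO+ZnO NPs. The part of these cells in the result, that of *Cxcl12* below included, was not tested.

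Among the ligands, *Cxcl12* had the smallest adjusted p. It was at 517, 444 and 354 CPM in KO and 102, 175 and 98.4 in KO+ZnO NPs and fell by 1.81 (SE 0.28, edgeR adjusted p = 0.00747). *Ccl8* was at 126, 122 and 37.8 CPM in KO+ZnO NPs and fell by 2.41 (SE 0.49, edgeR adjusted p = 0.0139), and *Ccl7* and *Ccl12* fell by 3.47 and 3.39, with the call of *Ccl7* held in 5 of the 12 fits that left out a library. *Ccl3* fell by 3.43, *Ccl11* fell by 1.89, *Ccl24* fell by 3.64 and *Cxcl3* fell by 4.55. With only KO and KO+ZnO NPs in the fit the calls of *Ccl8* and *Cxcl3* were lost (edgeR adjusted p = 0.0535 and 0.0639). *Ccl6*, at 85.2, 112 and 21.7 CPM, overlapped the KO libraries and did not pass (log2 change -1.02 ± 0.55, edgeR adjusted p = 0.228). *Ccl9*, at 56.2, 73.5 and 19.2 CPM, did not overlap them but did not pass either (log2 change -1.41 ± 0.51, edgeR adjusted p = 0.0853). The sole member that was higher was *Ackr4*, at 19.1, 20.8 and 16.3 CPM in KO and 39.7, 28.8 and 43.5 in KO+ZnO NPs (log2 change 1.00 ± 0.22, edgeR adjusted p = 0.019), a call lost without KO replicate 2 or 3. That call was also lost with only those groups in the fit (edgeR adjusted p = 0.053). *Ackr4* overlaps *Acad11* on the opposite strand and has 7.21% of its 50-base stretches in common with it. *Acad11* was at 40.8 to 42.7 CPM in KO and 36.6 to 59.8 in KO+ZnO NPs and did not pass (edgeR adjusted p = 0.329).

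Altogether 14 members were lower both in the libraries labelled WT+ZnO NPs, whose *Cdc42* level goes against that label, and in KO+ZnO NPs, each against its untreated group, among them *Ccl8*, *Ccl11*, *Ccl12*, *Cxcl12*, *Ccr1*, *Ccr2*, *Ccr3* and *Cxcr3*. They were 14 of the 29 lower in WT+ZnO NPs against WT and 14 of the 19 lower in KO+ZnO NPs against KO, and these comparisons have no library in common. This was 25.9% of the members tested, beside 6.46% of all genes tested. All 9 macrophage markers were called lower in both comparisons as well.

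Whether the change with ZnO NPs differed by genotype, as labelled, was tested as an interaction, in which a positive value means a smaller fall or a larger rise in KO. There were 3 members called higher (5.56% of those tested, beside 5.08% of all genes) and 1 called lower (1.85%, beside 3.59% of all genes), and the median was 0.14 for the members and 0.02 for all genes. *Ccl6* had an interaction of 4.43 ± 0.81 (edgeR adjusted p = 0.0129) and *Ccl9* of 3.86 ± 0.74 (edgeR adjusted p = 0.015), and both were called in all 12 fits that left out a library. The KO libraries without ZnO NPs already had less of both genes than the WT libraries, as given above. *Ccr1* had an interaction of 2.61 ± 0.70 (edgeR adjusted p = 0.0454), and its call held in 2 of the 12 such fits. Without WT replicate 2 or KO replicate 3, 2 members were called (beside 2.38% and 3.30% of all genes). Of the macrophage markers, 4 of 9 were called higher in the interaction, as were 3 of 8 of blood endothelium, 1 of 6 of lymphatic endothelium and 1 of 6 of adipocytes. Called lower were 6 of 8 hair follicle, 3 of 7 melanocyte and 1 of 7 mast cell markers, and their part in the result was not tested. With Y-linked transcripts as a covariate 0 members were called (edgeR, beside 0.664% of all genes), and 12 had an unadjusted p below 0.05. DESeq2 without that covariate called 11 members, beside 17.3% of all genes.

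*Ccr10* was the member with a negative interaction. It was at 1.05, 1.19 and 1.27 CPM in WT, 1.52, 2.01 and 1.46 in WT+ZnO NPs, 1.36, 1.53 and 1.67 in KO and 0.742, 0.605 and 0.566 in KO+ZnO NPs. The KO+ZnO NPs libraries were the lowest 3 of the 12, from 42 counts in sum. Its interaction was -1.75 ± 0.36 (edgeR adjusted p = 0.02), lost without WT replicate 2 or KO replicate 3. *Ccr10* lies on chromosome 11 at 101172997 to 101175443 (GRCm38) and overlaps *Cntnap1* on the opposite strand. *Cntnap1* was at 4.07 to 5.52 CPM in WT, 13.4 to 16.7 in WT+ZnO NPs, 5.95 to 8.76 in KO and 6.50 to 9.03 in KO+ZnO NPs, with an interaction of -1.54 (edgeR adjusted p = 0.0176). *Ccr10* has 0% of its 50-base stretches in common with annotated transcripts of other genes, those of *Cntnap1* included, and reads of unspliced *Cntnap1* RNA were not tested for. Over the 12 libraries the genes whose log2 levels were most like those of *Ccr10* were *Gm16091* (Pearson r = 0.906), *Srgap3* (0.901) and *Gm47260* (0.898), given as a description of libraries that have their groups in common. The ligands *Ccl27a*, at 63.2 to 98.9 CPM in KO+ZnO NPs, and *Ccl28*, at 0.504 to 0.698, did not pass in any comparison.

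Between the groups given ZnO NPs, KO+ZnO NPs against WT+ZnO NPs, *Ccr10* was the sole member called, and it fell by 1.38 (SE 0.26, edgeR adjusted p = 0.0343), a call that held in 2 of the 12 fits that left out a library. There were 0 members called higher (beside 2.13% of all genes) and 1 called lower (1.85% of those tested, beside 1.16% of all genes), with 17 at an unadjusted p below 0.05. DESeq2 called 13 members, beside 11.8% of all genes. The median was 0.35 for the members, or 0.23 with *Cxcl15* and *Cxcr1* at the bound that 3 counts allow, and 0.04 for all genes. *Cntnap1* was lower as well, by 0.99 (edgeR adjusted p = 0.0408). *Cxcl15*, with 0 counts in WT+ZnO NPs and 25 in KO+ZnO NPs, was at least 9.15-fold higher but did not pass. *Ccl17*, at 1.75 to 4.27 CPM against 0.514 to 1.01, *Ccl22*, at 6.66 to 11.8 against 1.78 to 4.32, and *Cxcl16*, at 40.6 to 56.3 against 14.4 to 34.4, were above WT+ZnO NPs in all libraries without passing.

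As the macrophage markers moved with many members, levels were also expressed per 100 CPM of these 9 markers in the same library. *Ccl6* was then at 26.2, 27.1 and 12.6 in WT, 8.23, 6.64 and 5.82 in WT+ZnO NPs, 4.84, 5.31 and 4.08 in KO, and 9.42, 10.9 and 4.81 in KO+ZnO NPs. *Ccl8* was at 4.38, 4.17 and 4.89 in WT and at 9.54, 13.2 and 13.3 in WT+ZnO NPs, 18.7, 18.0 and 12.8 in KO and 13.9, 11.9 and 8.39 in KO+ZnO NPs. On this scale *Ccl6* remained highest in WT, and *Ccl8* was lowest in WT although it had fallen in CPM with ZnO NPs. *Ccr1* was at 1.34 to 1.76 in WT, 0.160 to 0.344 in WT+ZnO NPs, 0.788 to 1.26 in KO and 0.246 to 0.435 in KO+ZnO NPs, so the groups with and without ZnO NPs stayed apart. For *Ccr2* the ranges were 5.38 to 10 in WT, 3.22 to 4.71 in WT+ZnO NPs, 3.00 to 4.32 in KO and 0.407 to 4.79 in KO+ZnO NPs, and the last 3 overlapped. These ratios are a description with n = 3 per group and no test.

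**Figure D5:**
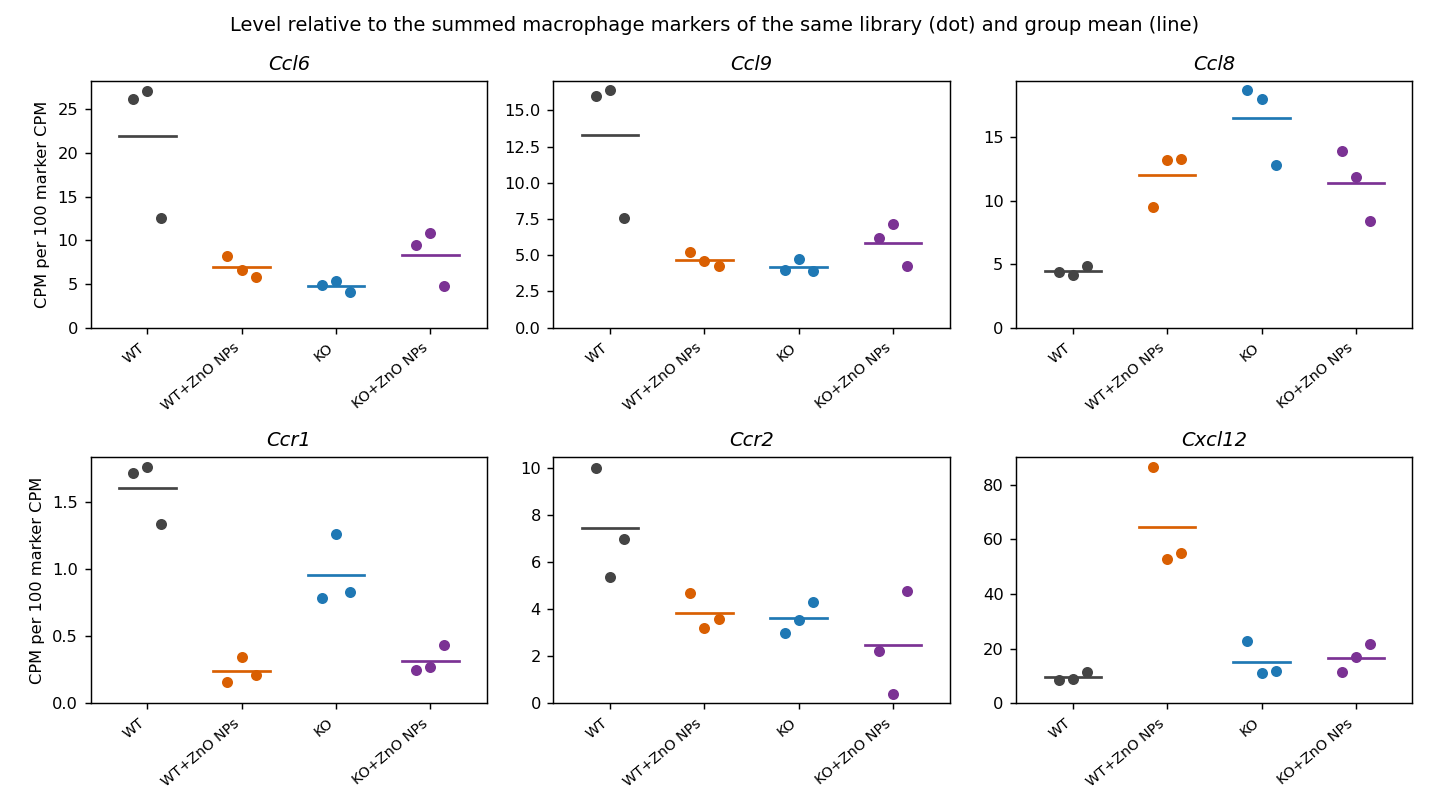
Level of 6 members in each library per 100 CPM of the 9 macrophage markers summed in that library (dots; lines are means of n = 3), with each axis from 0. *Ccl6*, *Ccl9* and *Ccr1* are highest in WT on this scale, *Ccl8* is lowest in WT, and *Cxcl12* is highest in WT+ZnO NPs.

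Some members lie together on a chromosome, and their counts are a description with no test, beside 53.7% and 35.2% of all tested members lower in the comparisons with ZnO NPs. Of the 11 ligands on chromosome 11 at 82035571 to 83664683, which hold *Ccl2*, *Ccl6*, *Ccl8* and *Ccl9*, 8 were lower and 1, *Ccl1*, higher in WT+ZnO NPs against WT, and 5 were lower in KO+ZnO NPs against KO. Of the 7 *Cxcl* ligands on chromosome 5 at 90759360 to 92348889, 3 and 1 were lower. On chromosome 8 at 94745590 to 94812036, *Ccl22* was lower and its neighbour *Cx3cl1* higher in WT+ZnO NPs, and *Cx3cl1* and *Ccl17* were higher in KO.

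Other genes of the pathway were followed through a list of 40 that are no members. It holds mostly G protein subunits, arrestins, kinases and actin regulators, *Cdc42* included, and also the chemokines *Pf4* and *Ppbp*, the peptidase gene *Dpp4* and the receptor genes *Ccrl2* and *Gpr182*. In WT+ZnO NPs against WT, 30 of the 40 were lower and 0 higher, with a median of -1.42, beside 22.1% of all genes lower. In KO+ZnO NPs against KO, 17 were lower and 0 higher, with a median of -0.64, beside 8.09% of all genes lower. The examples *Dock2*, *Was* and *Rac2* are genes of leukocytes, and all 9 macrophage markers were lower in the same comparisons. *Dock2*, which activates Rac in migrating leukocytes, was at a mean of 113 CPM in WT and 6.74 in WT+ZnO NPs and fell by 4.07, and it fell by 2.19 in KO+ZnO NPs. *Was*, the Wiskott-Aldrich protein that acts downstream of Cdc42 in blood cells, fell by 4.05 and 2.26, and *Rac2* fell by 3.48 and 2.29. *Pf4*, a platelet chemokine outside the naming rule, was at 339 CPM in WT, 10.5 in WT+ZnO NPs, 67.6 in KO and 20.9 in KO+ZnO NPs, and its interaction was 3.32 (edgeR adjusted p = 0.0186). In KO against WT 8 of the 40 were lower and 0 higher (beside 3.58% of all genes lower), among them *Pf4*, *Ppbp*, *Dpp4*, *Gpr182*, *Lyn* and *Arrb2*, in the interaction 10 were higher and 0 lower (beside 5.08% of all genes higher), and between the groups given ZnO NPs *Gng2* alone was called, higher in KO+ZnO NPs.

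Of the 54 members tested, 40 passed the test in 1 or more of the 5 comparisons. That share was not counted for all genes, of which 22.1% were lower and 20.8% higher in WT+ZnO NPs against WT alone. The 14 members that were called in none included the epidermal and mucosal ligands *Ccl25*, *Ccl27a*, *Ccl27b* and *Ccl28*, the interferon-inducible *Cxcl9* and *Cxcl10*, the neutrophil attractants *Cxcl1* and *Cxcl2*, the receptor pair partners *Xcl1* and *Xcr1*, and *Ccl4*, *Ccr6*, *Ccr7* and *Cxcr6*. *Ccl25* was the steadiest of these, at 3.83 to 5.64 CPM in all 12 libraries.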

How the data were processed

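RNA of dorsal skin from 12 mice in 4 groups was sequenced, and the values used are the gene counts that the authors deposited, 1 column per library, with 0 columns left unused. The submitters' processing notes name HISAT2 2.0.5 and mm10, while the study's methods name other alignment and counting tools, so the counter and its use of strand are not settled in the sources used here. Of 52636 genes, 52403 were matched to GENCODE release 21 (GRCm38). Counts were analysed with edgeR 4.0.16 in R 4.3.3: TMM factors, filterByExpr (18822 genes left), 1 quasi-likelihood fit over the 12 libraries, 4 contrasts and their interaction, and Benjamini-Hochberg adjustment over all genes tested, with calls below 0.05. CPM were scaled by TMM. DESeq2 1.42.0, other filters and factors, a replicate block, the groups compared alone, a covariate for Y-linked transcripts (summed CPM above 10) and leaving out each library were alternatives. The scripts were tested on simulated data. The members and lists were chosen with earlier results of these data known. The result of 1 member is not reported here, though it stays in the counts. Genes were named if called in at least 1 comparison, highest per kb in their role, paired with such a gene, or filtered out. Each library is from a separate mouse as labelled, and totals of 21076320 to 28867802 counts limit the precision of the lowest genes.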

Additional observations from a re-analysis of the deposited data

Results flagged for a closer look

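For 4 members the difference between KO+ZnO NPs and KO was not the same as the one between WT and the WT+ZnO NPs libraries as labelled, by the interaction test in edgeR (log2, the former minus the latter): 4.43 for *Ccl6*, 3.86 for *Ccl9*, 2.61 for *Ccr1* and -1.75 for *Ccr10*. These 4 were 7.41% of the members tested, beside 8.68% of all genes tested. *Cdc42* in the libraries labelled WT+ZnO NPs, at 311 to 350 CPM, goes against their label, and all 3 hold Y-linked transcripts that the WT libraries lack, so treatment, genotype and sex cannot be told apart in this difference. With Y-linked transcripts as a covariate, the edgeR adjusted p-values were 0.0784, 0.0916, 0.232 and 0.123.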

How the results depend on the processing

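Of 568 alternative values for single called members, 483 kept direction and call, 85 kept direction and lost the call, and 0 reversed. Members called numbered 9 for KO against WT, 14 with DESeq2, 17 with only the groups compared, 5 with the Y-linked covariate, and 0 (without WT replicate 2) to 10 when a library was left out. Of all genes, 14.2% were called with DESeq2, 15.9% with only those groups, 5.11% with the covariate and 1.94% without WT replicate 2. For WT+ZnO NPs against WT the members called numbered 32, 21 with at least 10 counts in every library, 13 with that covariate, and 24 to 34 when a library was left out. Of all genes, 46.4% were called with that filter and 20.7% with the covariate. For KO+ZnO NPs against KO the members called numbered 20, 11 with only those groups (beside 3.24% of all genes), and 7 (without KO replicate 2, beside 2.34%) to 22. For KO+ZnO NPs against WT+ZnO NPs they numbered 1, 0 with no filter, with only those groups or with the covariate, 2 with the stricter filter, 13 with DESeq2, and 0 to 5 (without KO+ZnO NPs replicate 3). Of all genes, 0.854% were called with no filter, 0% with only those groups and 0.00531% with the covariate. The share was 5.44% with the stricter filter, 11.8% with DESeq2 and 8.26% without KO+ZnO NPs replicate 3. For the interaction the members called numbered 4, 11 with DESeq2, 0 with the covariate, and 2 (without WT replicate 2 or KO replicate 3) to 5. Of all genes, 17.3% were called with DESeq2, 0.664% with the covariate, 2.38% without WT replicate 2 and 3.30% without KO replicate 3. The replicate block gave 8, 33, 25, 2 and 5 member calls in these 5 comparisons, beside 6.58%, 42.9%, 13.8%, 3.33% and 7.59% of all genes. Whether same-numbered samples have more than a number in common is not known. Of 18 pairs of them, 4 had a correlation above 0.1 (range -0.343 to 0.429), which cannot show that no batch or litter was shared. The causes were not tested.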
